A study of Mus musculus with 9 samples.

Results

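Transcripts of 8 genes of the Myc, ATF and Gadd45 stress circuit were followed in OB-6 cells, a mouse osteoblastic line, over the first hour of parathyroid hormone (PTH). The genes were Myc, Atf3, Atf4, Ddit3, Gadd45a, Gadd45b, Gadd45g and Cdkn1a. Every probe set whose platform symbol was one of these names was taken, which gave 12 of the 12488 probe sets in the table and all 8 genes of the 8252 with a symbol of their own. Total RNA was hybridised to 1-colour short-oligonucleotide arrays at 0, 30 and 60 min of PTH, with 3 arrays per time labelled replicates a, b and c and 9 in all. The 0 min cells are called basal in the labels, and no genotype, strain or second agent is named for any group. The sources used here do not state the PTH dose or the culture medium, and cultures kept for 30 or 60 min without the hormone were not analysed here. The labels leave unstated whether a, b and c were separate cultures, so the p-values below measure the spread among arrays, which may be technical.

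Myc is a transcription factor of the basic helix-loop-helix class that pairs with Max and drives growth and ribosome production. ATF4, ATF3 and the product of Ddit3, known as CHOP, are basic leucine zipper factors of the integrated stress response, in which phosphorylated eIF2 alpha slows general translation while ATF4 mRNA is translated more. The 3 Gadd45 proteins are small stress sensors that bind PCNA, CDK1 and the kinase MAP3K4, and Cdkn1a encodes p21, an inhibitor of cyclin-dependent kinases under p53 control. PTH acts on osteoblasts largely through a receptor that raises cAMP, and several of these genes are known as rapid-response genes in other cell systems.

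The upstream sequences of 4 of the genes are printed here because their probe sets gave the called changes (Cdkn1a and Gadd45b) or because their windows hold a rare combined C/EBP-ATF motif (Atf3 and Gadd45g). Each line is the 250 bases before the annotated start in RefSeq's GRCm38.p6, 5′ to 3′ on the gene's own strand. The windows are chr17:29093519-29093768 on the plus strand for Cdkn1a, chr10:80929841-80930090 on the plus strand for Gadd45b, chr1:191183334-191183583 on the minus strand for Atf3 and chr13:51846425-51846674 on the plus strand for Gadd45g. Capitals mark every match to the motifs searched.
Cdkn1a: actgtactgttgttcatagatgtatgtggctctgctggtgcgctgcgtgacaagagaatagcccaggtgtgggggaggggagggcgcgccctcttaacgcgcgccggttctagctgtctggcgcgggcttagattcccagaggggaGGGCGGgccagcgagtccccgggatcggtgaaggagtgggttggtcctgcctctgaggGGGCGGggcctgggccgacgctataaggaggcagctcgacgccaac
Gadd45b: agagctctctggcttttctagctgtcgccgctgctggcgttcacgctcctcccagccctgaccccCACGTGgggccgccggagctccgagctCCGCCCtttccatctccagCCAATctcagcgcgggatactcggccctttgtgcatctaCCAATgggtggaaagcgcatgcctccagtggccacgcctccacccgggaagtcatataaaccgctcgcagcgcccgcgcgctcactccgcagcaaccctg
Atf3: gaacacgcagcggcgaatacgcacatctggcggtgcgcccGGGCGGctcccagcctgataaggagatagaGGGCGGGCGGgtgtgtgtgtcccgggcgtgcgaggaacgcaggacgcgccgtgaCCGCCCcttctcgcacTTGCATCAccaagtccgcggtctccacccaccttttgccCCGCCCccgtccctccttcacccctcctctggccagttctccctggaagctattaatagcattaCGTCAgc
Gadd45g: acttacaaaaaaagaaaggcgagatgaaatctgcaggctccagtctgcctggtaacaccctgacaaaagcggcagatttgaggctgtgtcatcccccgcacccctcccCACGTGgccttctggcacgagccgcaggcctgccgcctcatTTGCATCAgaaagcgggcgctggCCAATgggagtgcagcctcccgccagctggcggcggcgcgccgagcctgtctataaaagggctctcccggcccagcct

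The motifs, searched on both strands, were the cAMP response element TGACGTCA, its core TGACG, which also lies inside the full element, the AP-1 site TGACTCA, the E-box CACGTG, to which Myc and Max can bind, the C/EBP-ATF site TTGCATCA, the CCAAT box CCAAT and the GC box GGGCGG. RefSeq's promoter table matched 7 of the 8 genes, all but Myc. The full cAMP response element was found in 0 of the members' windows and in 1.55% of all 32851 windows of this length. Atf3 held a core site 7 bases before its start and Atf4 one 12 bases before it, a motif present in 17.8% of all windows. Atf3 and Gadd45g each held the C/EBP-ATF site, 110 and 101 bases upstream, which 0.791% of all windows hold. Gadd45b and Gadd45g each held an E-box (6.02% of all windows), and Ddit3 held the AP-1 site (4.46%). The Cdkn1a window shown has 2 GC boxes, 104 and 46 bases upstream, and Atf3 has 5, of which the pair at 180 and 176 bases overlaps (32.7% of all windows hold at least 1). Gadd45a and Gadd45b each held 1 GC box, 163 and 158 bases upstream. The window before the other annotated start of Cdkn1a held none of the motifs. CCAAT boxes, present in 33.8% of all windows, lay before Gadd45a, Gadd45b, Gadd45g, Ddit3 and Atf4. These matches describe letters in a window and say nothing of binding.

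The arrays had been brought to a common scale before deposit, with a mean intensity of 250.1 or 250.2 per array after 2% of probe sets was taken off each end. Intensities still spread more widely at 60 min. There the brightest percentile began at 3852, 4722 and 4187 on arrays a, b and c, against 3474 to 3605.5 at 0 min. Medians were 80.3, 73.1 and 73.7, against 82.3 to 85.9 at 0 min. The part of this spread in the 60 min changes of bright or dim probe sets was not tested. The array of 60 min replicate b stood furthest from the others, with a median correlation of 0.938 to them against 0.954 to 0.967 for the rest, and with a ratio of the 3′ to the 5′ Actb control of 0.874 against 0.302 to 0.809, while its Gapdh ratio of 0.719 lay within the 0.666 to 0.859 of the rest. Of 11 osteoblast markers 7 had a probe set. Col1a1, Col1a2, Bgn, Sparc and Alpl were above the detection filter, an intensity of 44.69, on all 9 arrays, Ibsp on 8, and the PTH receptor gene Pth1r on 0, with a mean intensity of 24.5. The summed intensity of these markers was 16416 to 18274 at 0 min, 17576 to 18566 at 30 min and 19352 to 23696 at 60 min. Leukocyte genes Ptprc and Itgam and the osteoclast gene Calcr were below the filter on every array. Cd68, Cd14 and Ctsk of the same 8-gene list were above it on all, Csf1r on 8 and Acp5 on 4. That list summed to 1764 to 2004, 1897 to 2049 and 1810.4 to 2266 at 0, 30 and 60 min. Adipoq, 4 of 4 endothelial markers and both measured chondrocyte markers were below the filter on all arrays, while Pparg, Fabp4 and Myod1 were above it on all. Of the other muscle markers, Ckm was above it on 8 arrays, Myog on 4, Des on 2 and Acta1 on 1. In the same order of times, the 5 skeletal muscle markers summed to 204 to 302, 325 to 363 and 276 to 410.1, the 3 measured adipocyte markers to 166 to 181, 155 to 183 and 151 to 169, the 4 endothelial ones to 29.3 to 45.3, 37.6 to 70.8 and 81.1 to 95.3, and the 2 measured chondrocyte ones to 12.8 to 18.1, 14.1 to 55.6 and 27.5 to 37.6. The osteoblast sum lay above its 0 min range at 60 min, the muscle sum at 30 min, and the endothelial and chondrocyte sums at 60 min, and the part of these in the results below was not tested.

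Of the 12 probe sets, 11 passed the filter, which asked for at least 3 arrays above 44.69, and were tested among 7884 probe sets. A probe set was called where its limma p, adjusted by the Benjamini-Hochberg method over all of these, was under 0.05. At 30 min 1 of the 11 was called against 0 min, a higher one, where 0.939% of all tested probe sets were called, 0.482% higher and 0.457% lower. At 60 min 2 of 11 were called against 0 min, 1 higher and 1 lower, where the share over all tested probe sets was 13.1% (4.35% higher, 8.73% lower), so that the members' count is near the background. Between 60 and 30 min 0 of 11 were called by limma, with 1 at an unadjusted p under 0.05, against 0.0254% called and 9.07% under that unadjusted p over all probe sets. The called probe sets belonged to Cdkn1a and Gadd45b. The 30 and 60 min comparisons share their 0 min arrays, so their values are given side by side and are not independent.

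**Figure D1:**
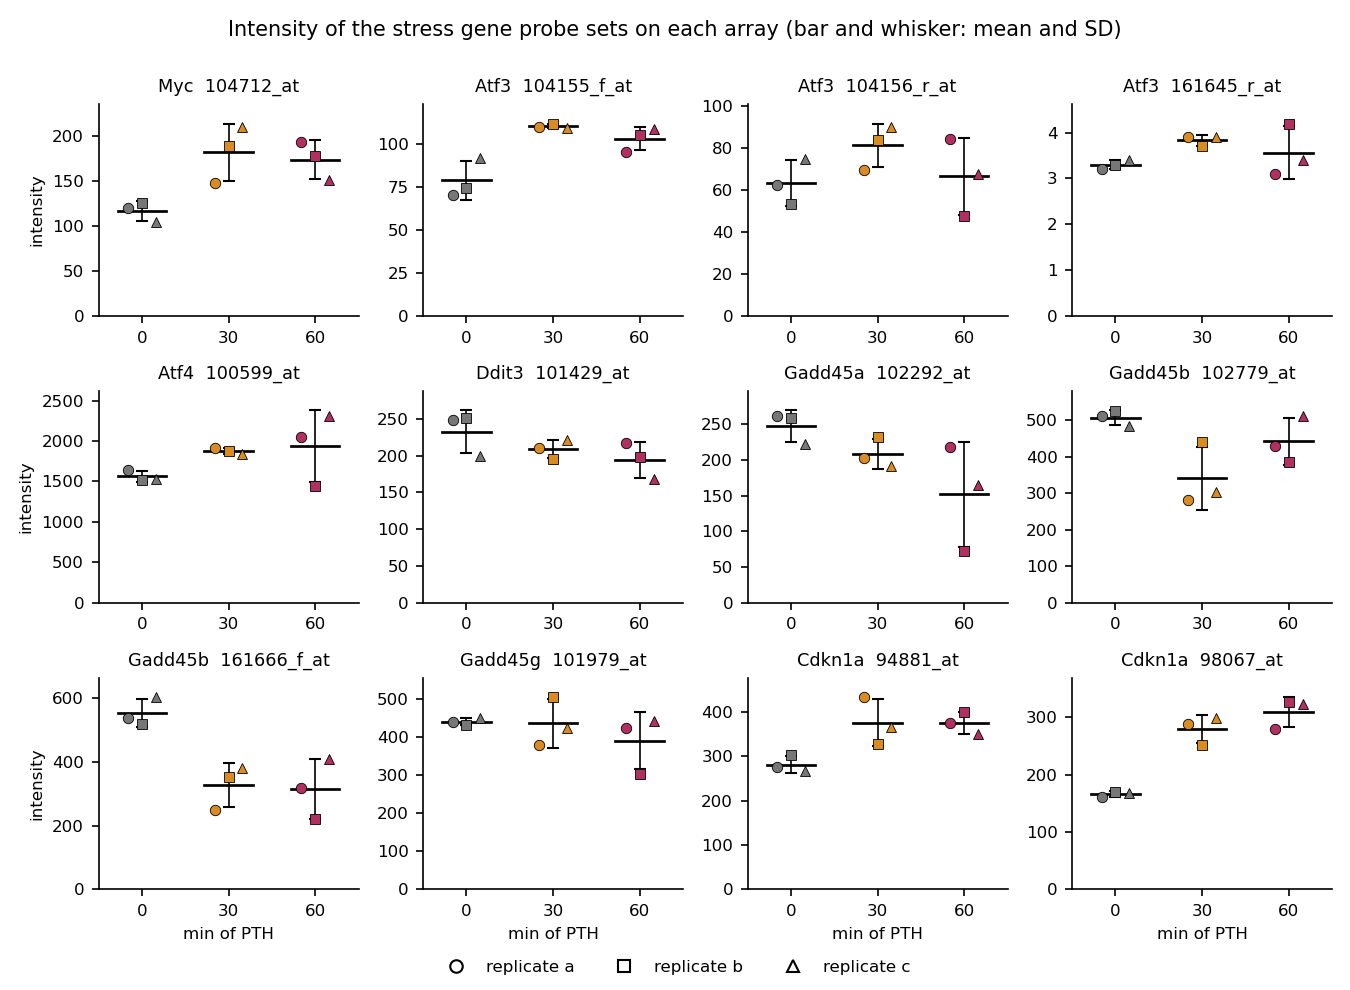
Intensity (linear scale, from 0) of each of the 12 probe sets on every array at 0, 30 and 60 min of PTH. Points are arrays, with circle, square and triangle for replicates a, b and c, and the horizontal bar and whisker are the mean and SD of 3 arrays. All 30 and 60 min points of both Cdkn1a probe sets lie above the 0 min points, and those of the Gadd45b probe set 161666_f_at lie below them.

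Cdkn1a was higher after PTH by both of its probe sets, and passed the test by the dimmer one. The brighter, 94881_at, read 275, 302 and 267 on the 0 min arrays a, b and c, 434, 328 and 365 on the 30 min arrays, and 375, 399.8 and 349.9 on the 60 min arrays. Every array of either treated time was above every 0 min array. All fold changes were taken from log2(intensity + 11.8), so that those of dim probe sets are understated. The log2 fold changes from 0 min were 0.39 (95% interval 0.11 to 0.68) at 30 min and 0.40 (0.11 to 0.68) at 60 min, and neither passed, with limma adjusted p of 0.159 and 0.0641. The 60 min value passed after quantile normalization, after scaling to the 75th percentile and without 30 min replicate a, at limma adjusted p of 0.0492, 0.0398 and 0.0406. In whole cultures, a change in RNA per cell cannot be told apart from a change in the share of cells that hold the transcript.

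The dimmer probe set of Cdkn1a, 98067_at, rose at both times. It read 161, 171 and 167 at 0 min, 289, 252 and 299 at 30 min, and 279, 326 and 323 at 60 min. All treated arrays were again above all 0 min arrays, while the 2 treated times overlapped each other. At 30 min the mean was 280.2 ± 24.6, against 166 ± 5.10 at 0 min (SD, n = 3 arrays each). This was 1.64-fold, or 0.71 on the log2 scale (SE 0.12, 0.44 to 0.98), with a limma adjusted p of 0.0287. At 60 min the mean was 309 ± 26.2, which is 1.80-fold above 0 min at a log2 fold change of 0.85 (0.58 to 1.12) and a limma adjusted p of 0.00693. Leaving out the outlying 60 min array b gave 0.81 (limma adjusted p = 0.0112), and the call was kept in all 19 alternatives, with adjusted p between 0.00425 and 0.0460. The 30 min call was lost without any of the 0 min arrays, without 30 min replicates b or c and without 60 min replicate c, with limma adjusted p between 0.0511 and 0.184. Over the 9 arrays the 2 probe sets had a Pearson correlation of 0.88, a description of values that share the same arrays. Between 60 and 30 min the differences were 0.00 (-0.28 to 0.29) for 94881_at and 0.14 (-0.13 to 0.41) for 98067_at, so neither a further rise nor a decline passed the test for p21 transcripts between these times.

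Gadd45b had 2 tested probe sets with different time courses, of which the dimmer one passed at 60 min. The brighter, 102779_at, read 511, 524 and 484 at 0 min, 281, 439 and 302 at 30 min, and 428, 385 and 510.2 at 60 min. The 30 min arrays were all below the 0 min arrays, and 60 min replicate c was back inside the 0 min range. The log2 fold change was -0.58 (SE 0.17, -0.96 to -0.21) at 30 min and -0.20 (-0.58 to 0.17) at 60 min, with limma adjusted p of 0.125 and 0.447. Between 60 and 30 min it was higher by 0.38 (0.01 to 0.76), at an unadjusted limma p of 0.0467 and an adjusted p of 0.54.

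The dimmer Gadd45b probe set, 161666_f_at, fell at 60 min. It read 539, 521 and 604 at 0 min, 250.04, 352 and 381 at 30 min, and 318, 221 and 409.9 at 60 min. No treated array reached the 0 min range. At 60 min it averaged 316 ± 94.5, against 555 ± 43.8 at 0 min, which is 1.78-fold lower, with a log2 fold change of -0.83 (SE 0.22, -1.30 to -0.35) and a limma adjusted p of 0.0331. At 30 min it averaged 327 ± 68.6 and its log2 fold change was -0.76 (-1.23 to -0.28), which did not pass (limma adjusted p = 0.119). The 60 min call was lost without any of the 0 min arrays and without 60 min replicate b, with limma adjusted p between 0.0745 and 0.102, and the difference without that last array was -0.60. It was also lost with no filter (0.0524) and with no variance trend (0.0517). The 30 min difference passed when the 60 min arrays were left out of the fit (limma adjusted p = 0.0356) and when only replicate b of that time was left out (0.0263). From 30 to 60 min it differed by -0.07 (-0.54 to 0.41), and whether the probe sets differ was not tested. Their correlation over the 9 arrays was 0.67. The names of 161666_f_at and of the Atf3 probe set 104155_f_at carry a suffix by which the manufacturer marks probes that may also match related sequences.

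**Figure D2:**
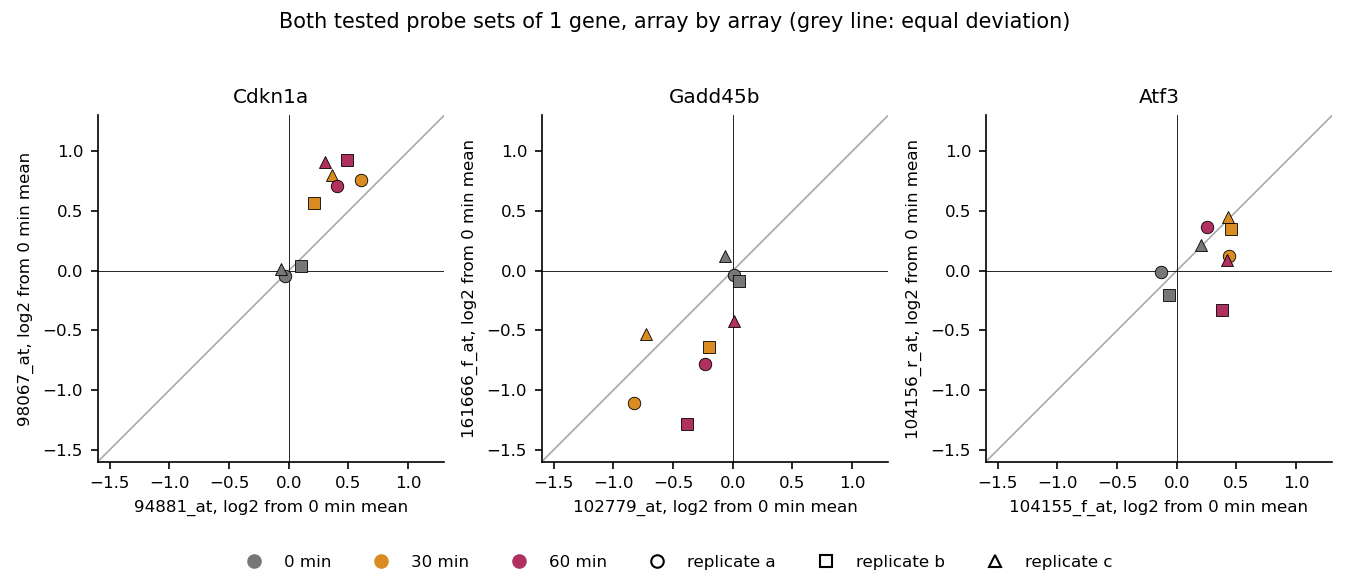
Deviation of each array from the 0 min mean (log2 scale) for the brighter tested probe set of a gene on the horizontal axis and the other on the vertical axis, for Cdkn1a, Gadd45b and Atf3. Colours are times, point shapes are replicates, and the grey line marks equal deviation. The 6 treated arrays of Cdkn1a lie up and right of the 0 min arrays, those of Gadd45b spread downwards, and those of Atf3 separate along the horizontal axis only.

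The other Gadd45 genes did not pass at either time. Gadd45a, a p53 target that also responds to ATF4, read 262, 259 and 222 at 0 min, 203, 232 and 191 at 30 min, and 218, 72.6 and 165 at 60 min. The 60 min arrays were all below the 0 min arrays, and replicate b was far below the other 60 min arrays. The means were 248 ± 22.0, 209 ± 21.1 and 152 ± 73.5 at 0, 30 and 60 min. At 60 min the log2 fold change from 0 min was -0.78 (SE 0.29, -1.43 to -0.13) with a limma adjusted p of 0.0981. This value rested on 1 array. It was -0.36 without 60 min replicate b at a limma adjusted p of 0.178, and it was -1.08 and passed with 60 min replicate a left out (0.0236). At 30 min it was -0.23 (-0.88 to 0.41), the widest interval of the 11 tested probe sets. Gadd45g, the family member best known as a cytokine-induced gene, lay at 430.2 to 451 at 0 min, 379 to 505 at 30 min and 304 to 443 at 60 min. All 3 ranges overlapped, with log2 fold changes of -0.02 (-0.37 to 0.32) and -0.19 (-0.54 to 0.16) from 0 min and limma adjusted p of 0.948 and 0.449. Its lowest value was again on 60 min replicate b, without which the 60 min difference was -0.02. In the order of means the 3 Gadd45a levels and the 3 Gadd45g levels both ran 0, 30, 60 min downwards, with no neighbouring pair past the test. For Gadd45g this order rested on single arrays. Without 60 min replicate b its log2 difference between 60 and 30 min was 0.0027. Without 30 min replicate a that between 30 and 0 min was 0.0682.

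Myc was higher at both treated times without passing the adjusted threshold. It read 120.3, 126 and 104 at 0 min, 148, 189 and 210.1 at 30 min, and 193, 177 and 151 at 60 min. No treated array overlapped the 0 min arrays. At 30 min Myc averaged 182 ± 31.7 and at 60 min 174 ± 21.4, against 117 ± 11.4 at 0 min. The log2 fold change at 30 min was 0.58 (SE 0.16, 0.23 to 0.94) with an unadjusted limma p of 0.00424 and an adjusted p of 0.112. At 60 min it was 0.53 (0.17 to 0.88), with 0.00786 and 0.0545. The 60 min value passed under 3 other scalings and without 30 min replicate a, with limma adjusted p between 0.0364 and 0.0472, and the 30 min value passed only without 30 min replicate a among the alternatives run (0.0400). The 60 and 30 min levels differed by -0.06 (-0.41 to 0.30), and the overall F test of limma over both times gave an adjusted p of 0.0808.

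Atf3, a repressor of the ATF family that many stimuli induce, was dim on these arrays. Its probe set 104155_f_at read 70.1, 74.1 and 91.8 at 0 min, 109.8, 112 and 109 at 30 min, and 95.3, 105 and 108 at 60 min. The treated arrays lay above the 0 min arrays, and the 60 min arrays lay below the 30 min arrays. The log2 fold change was 0.44 (SE 0.15, 0.11 to 0.77) at 30 min and 0.35 (0.02 to 0.68) at 60 min, with limma adjusted p of 0.171 and 0.137, and it passed in none of the 18 alternatives in which it was tested. The 60 min level differed from the 30 min level by -0.09 (-0.42 to 0.24). The second probe set, 104156_r_at, overlapped at all times, at 53.1 to 74.7 at 0 min, 69.6 to 90.0 at 30 min and 47.5 to 84.1 at 60 min. Its log2 fold changes of 0.31 (-0.17 to 0.79) and 0.04 (-0.44 to 0.52) had limma adjusted p of 0.471 and 0.919, and the correlation of the 2 probe sets over the arrays was 0.41. The third, 161645_r_at, lay between 3.10 and 4.199 on all 9 arrays, below the filter on each, and was not tested.

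Atf4, the main effector of the integrated stress response, was bright. It read 1644, 1515 and 1529.7 at 0 min, 1912, 1879 and 1842 at 30 min, and 2049, 1444 and 2312 at 60 min. All 30 min arrays were above the 0 min arrays, while 60 min replicate b was below them and the other 60 min arrays above. The log2 fold change was 0.26 (-0.07 to 0.59) at 30 min and 0.28 (-0.05 to 0.61) at 60 min, and neither passed (limma adjusted p = 0.375 and 0.222). The low array decided the 60 min call, since the difference was 0.48 and passed when it was left out (limma adjusted p = 0.0184). Ddit3, the pro-apoptotic factor CHOP that ATF4 induces, lay at 199 to 251 at 0 min, 196 to 221 at 30 min and 168 to 217 at 60 min. Its arrays overlapped at all times, with log2 fold changes of -0.14 (-0.45 to 0.17) and -0.24 (-0.56 to 0.07) and limma adjusted p of 0.607 and 0.26. The upper ends of these intervals were 0.17 and 0.07 on the log2 scale. They hold for this probe set alone and rest on the spread among arrays, so they set no bound on Ddit3 transcripts in the cells.

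**Figure D3:**
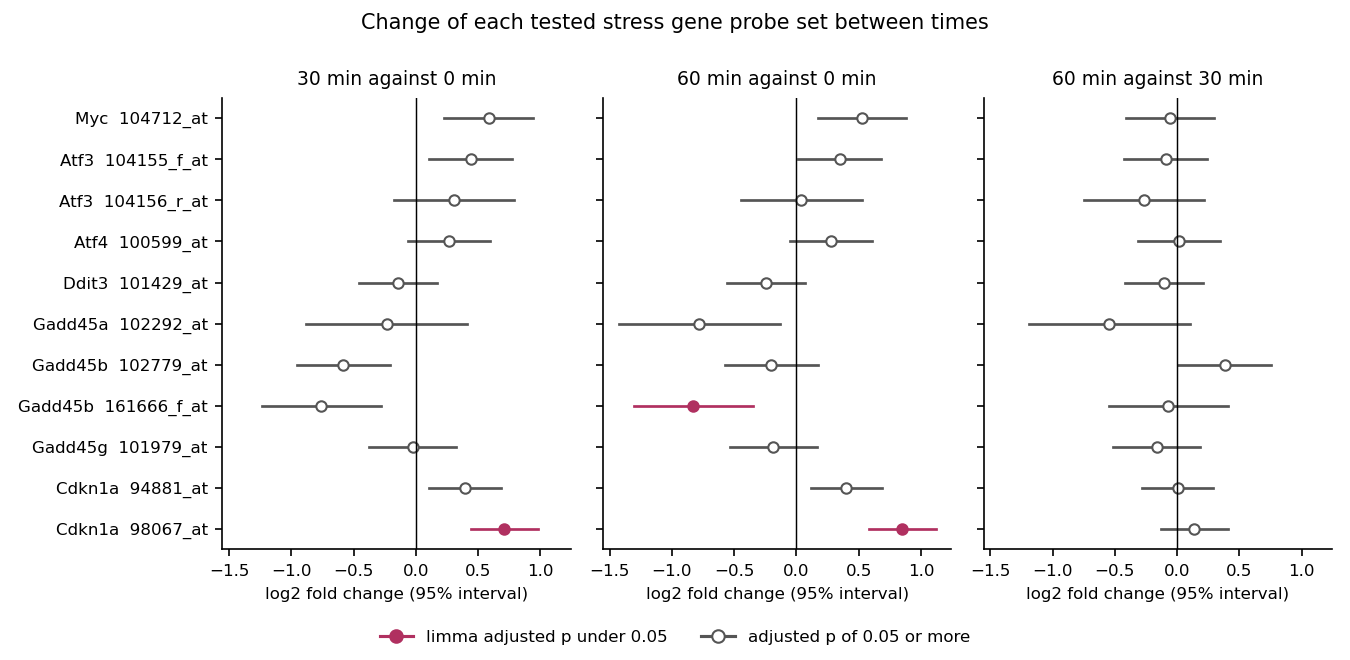
Log2 fold change with its 95% interval (horizontal axis) of each of the 11 tested probe sets for 30 against 0 min, 60 against 0 min and 60 against 30 min. Filled points had a limma adjusted p under 0.05. The 3 filled points are 98067_at of Cdkn1a in both comparisons with 0 min and 161666_f_at of Gadd45b at 60 min.

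Counted by arrays that did not overlap, 7 of 11 probe sets separated 30 from 0 min, 5 of them higher (Myc, Atf3, Atf4 and both of Cdkn1a) and 2 lower (both of Gadd45b), against 30.6% of all tested probe sets, 15.3% each way. At 60 min 6 of 11 separated from 0 min, 4 higher (Myc, Atf3 and both of Cdkn1a) and 2 lower (Gadd45a and 161666_f_at of Gadd45b), against 40.7%, about evenly each way with 20.7% lower. Between 60 and 30 min 1 of 11 did, Atf3 (104155_f_at), which was lower, against 11.6%, of which 5.06% were higher and 6.49% lower. An unadjusted limma p under 0.05 was met by 6 of 11 at 30 min, where 17.9% of all probe sets met it, and by 6 of 11 at 60 min, where 32.8% did. With the brightest probe set of each gene, the median log2 fold change of the 8 genes was 0.12 at 30 min and 0.05 at 60 min, beside 0.05 and 0.04 over all 5936 genes. By this measure limma called 0 of the 8 genes at either time, with 4 at an unadjusted p under 0.05 at each.

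The genes of the lists below, which encode partners and targets of the members, were chosen with earlier results of these data known. At 30 min 34 of all 5936 genes were called higher and 29 lower, and at 60 min 273 and 540. The unadjusted counts below stand beside the shares over all tested probe sets, 17.9% at 30 min and 32.8% at 60 min. Without 60 min replicate b, 528 of all 7884 tested probe sets were called at 60 min, 155 of them higher, against 1031 with every array. Among 20 tested partners and targets of Myc limma called 0 at 30 min, with 9 at an unadjusted p under 0.05, 7 higher and 2 lower. At 60 min 4 rose and 1 fell, and the list medians were 0.22 at 30 min and 0.20 at 60 min. Ruvbl2, an ATPase that Myc recruits, averaged 427 ± 106 at 60 min, against 257 ± 29.7 at 0 min (log2 fold change 0.69, limma adjusted p = 0.0298). Ldha, the lactate dehydrogenase subunit that Myc activates, rose by 0.52 (limma adjusted p = 0.0161), and the cyclin-dependent kinase gene Cdk4 by 0.39 (0.0468), while its other probe set stood at 0.31 (0.576). Npm1, a nucleolar chaperone that is also a Myc target, fell by 0.94 on the log2 scale, to 1789 ± 497 at 60 min, against 3367 ± 33.9 at 0 min (limma adjusted p = 0.0207). The direction among the members of this list was therefore mixed. Without 60 min replicate b, 1 rose and 1 fell.

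Of 15 bZIP partners limma called 0 at 30 min, with 3 at an unadjusted p under 0.05, and 2 rose at 60 min, with medians of 0.19 and 0.09. These were Cebpd with 0.85 (limma adjusted p = 0.0137) and Cebpb with 0.50 (0.0234), which encode C/EBP factors that pair with ATF4 and CHOP. In the integrated stress response list, limma called 0 of 22 genes at 30 min, with 7 at an unadjusted p under 0.05, and 4 rose and 2 fell at 60 min, with medians of 0.13 and 0.19. Ddit4, an inhibitor of mTOR complex 1, stood at 722 ± 90.6 at 60 min, against 467 ± 27.5 at 0 min (log2 fold change 0.61, limma adjusted p = 0.0216). Wars, a tryptophanyl-tRNA synthetase gene, rose by 0.56 (limma adjusted p = 0.0162), with 2 other probe sets at -0.06 and 0.21. Psat1 and Gars, the other 2 genes called higher, stood at 0.48 (limma adjusted p = 0.0199) and 0.45 (0.0254). Both of these calls were lost with any 0 min array left out. Eif2ak4, the eIF2 alpha kinase GCN2 that senses uncharged tRNA, fell to 59.6 ± 18.4 at 60 min, against 109.8 ± 3.92 at 0 min (-0.80, limma adjusted p = 0.0298). Nupr1, a small stress-induced chromatin protein, fell by 0.71 (limma adjusted p = 0.0265). Without 60 min replicate b, 4 genes of this list rose and 0 fell.

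The unfolded protein response list had 0 of 18 genes called by limma at 30 min, with 2 at an unadjusted p under 0.05, and 1 at 60 min, with medians of -0.02 and -0.11. The gene was Dnajc3, an endoplasmic reticulum co-chaperone also known as an inhibitor of eIF2 alpha kinases, which averaged 144 ± 64.5 at 60 min, against 319 ± 12.3 at 0 min (-1.16, limma adjusted p = 0.0313). Its 2 other probe sets stood at -0.51 and -0.60. Without 60 min replicate b, 0 genes of the list were called.

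Among 20 p53 targets and DNA damage genes, 2 rose and 0 fell at 30 min, and 1 rose and 4 fell at 60 min, with medians of -0.20 and -0.37. An unadjusted limma p under 0.05 was met by 10 at 30 min, 4 higher and 6 lower. At 60 min 11 met it, 3 higher and 8 lower. Btg2, an antiproliferative p53 target, read 544, 552 and 517 at 0 min, 1013, 978 and 966 at 30 min, and 679, 685 and 771 at 60 min. Its 3 times did not overlap one another. The log2 fold change from 0 min was 0.86 (SE 0.10, limma adjusted p = 0.00239) at 30 min, kept in all 19 alternatives, and 0.40 (0.0298) at 60 min. Ccng2, an atypical cyclin, was lower by -0.96 at 60 min, at 182 ± 26.8 against 364 ± 8.11 at 0 min (limma adjusted p = 0.00733), and this call too was kept in all alternatives. Ccng1, its p53-responsive relative, stood at -1.25 (limma adjusted p = 0.025) and Fas, the death receptor, at -0.80 (0.0435). At 60 min, then, Cdkn1a (98067_at) and Btg2 were called higher, and Ccng1, Ccng2, Fas and Sesn1 lower. Sesn1, an antioxidant p53 target outside the rule for named genes and added after its value was seen, stood at -0.46 (limma adjusted p = 0.0331). The Sesn1 call was lost with any 0 min array left out and without 60 min replicates b or c. In each of these fits Ccng2 was the only gene of the list called lower. Plk2, also outside that rule, was the other gene called higher at 30 min. It stood at 0.52 there (limma adjusted p = 0.0481) and at 0.18 at 60 min (0.255). Its 30 min call was lost with any 0 min or 30 min array left out and without 60 min replicate c. In each of these fits Btg2 was the only gene of the list called higher. Without 60 min replicate b, 1 gene of the list rose and 1 fell at 60 min, and the list median was -0.13.

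Among 12 CDK inhibitors, CDKs and cyclins other than Cdkn1a, limma called 0 at 30 min, with 4 at an unadjusted p under 0.05, and at 60 min only Cdk4, already given, with medians of 0.23 and 0.20. Among 13 partners of the Gadd45 proteins and stress kinases, limma called 0 at either time, with 1 and 3 at an unadjusted p under 0.05 and medians of 0.04 and 0.01. Its brightest genes were Pcna, the replication clamp, at 0.01 (limma adjusted p = 0.967) and Mapkapk2, a kinase downstream of p38, at 0.35 (0.0577). The 60 min calls of Ruvbl2, Npm1, Ldha, Cdk4, Cebpb, Ddit4, Nupr1, Wars, Eif2ak4, Dnajc3, Ccng1, Fas and Btg2 were each lost without any of the 0 min arrays, and that of Cebpd without 0 min replicates a or b. Those of Ruvbl2, Cdk4, Cebpb, Eif2ak4, Nupr1, Dnajc3, Ccng1 and Fas were also lost without 60 min replicate b. Processing mattered too, and the call of Cdk4 was lost in 12 of 19 alternatives and that of Fas in 11 of 18. Both were lost under quantile normalization, cyclic loess and no filter. Cyclic loess also removed the calls of Cebpb and Btg2 (limma adjusted p = 0.0518 and 0.0552). With no filter those of Eif2ak4 and Dnajc3 were lost (0.0566 and 0.0540).

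**Figure D4:**
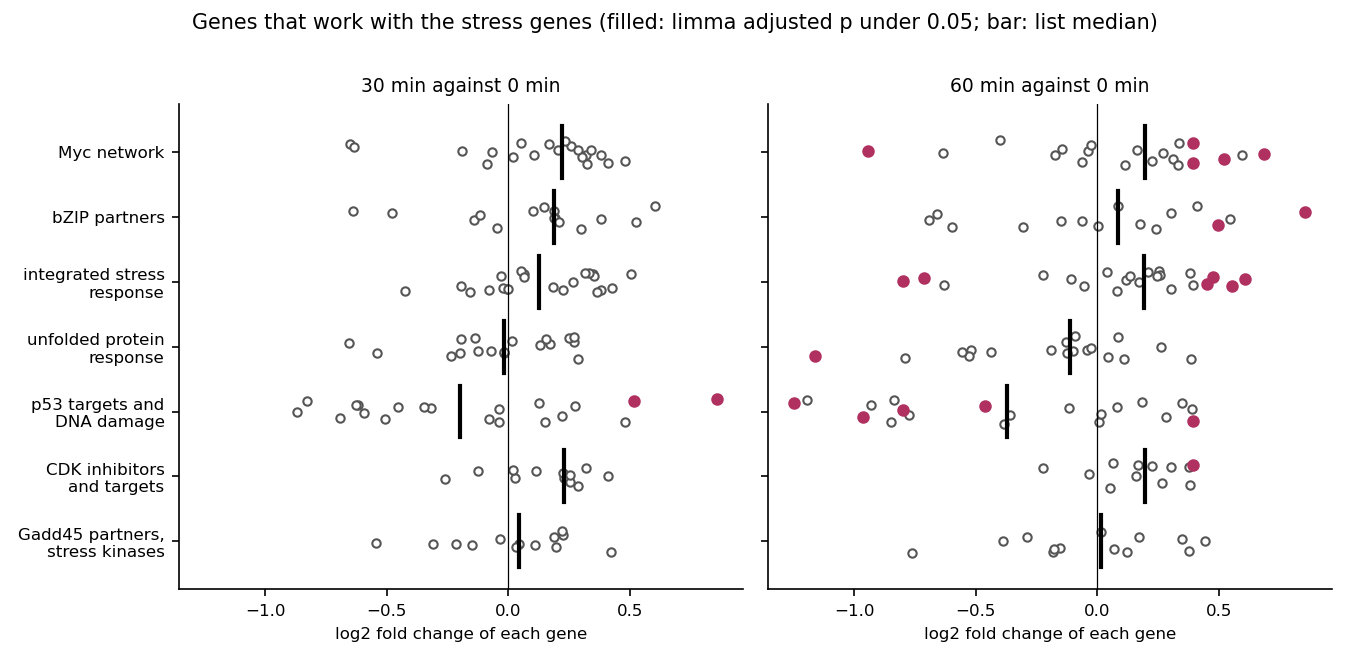
Log2 fold change of every tested gene (brightest probe set, points, with vertical scatter added for visibility) in 7 lists of genes that work with the stress genes, for 30 against 0 min on the left and 60 against 0 min on the right. Filled points had a limma adjusted p under 0.05 and vertical bars are list medians. The p53 and DNA damage list has its median at -0.20 and -0.37 and holds the 2 filled points at 30 min.

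The time courses most like those of the members are given as a description over 9 arrays, which share their 0 min level and array effects. For Cdkn1a (94881_at) the genes with the highest Pearson correlation were Cdk2, a kinase that p21 inhibits, at 0.98, and the mitotic genes Plk1 at 0.94 and Kif22 at 0.939. The Cdk2 probe set used stood at 0.41 at 30 min and 0.38 at 60 min, on the log2 scale from 0 min. The other Cdk2 probe set stood at -0.34 and 0.24. For Myc the nearest genes were Rbbp4, a histone-binding protein, at 0.969, the mitochondrial import channel Timm23 at 0.962 and the chemokine Cxcl1 at 0.944. Atf3 was nearest to Renbp at 0.975, the cyclin gene Ccne1 at 0.969 and Cdca4 at 0.965. Atf4 was nearest to the peptidase Prep at 0.962, the Mediator subunit Med10 at 0.935 and the histidyl-tRNA synthetase gene Hars at 0.926. Gadd45a followed Gas2 at 0.985, Mocs2 at 0.976 and Btf3l4 at 0.972, and 182 genes correlated with it above 0.9, while the other members had 1 to 23 such genes. The 60 min replicate b value of Gadd45a, at -1.62 from its 0 min mean on the log2 scale, weighs on these correlations. Gadd45b (102779_at) was nearest to Adam28 at 0.947, Copb2 at 0.935 and Adam15 at 0.915, Gadd45g to Mpp1 at 0.947, Bnip3 at 0.929 and Nln at 0.928 (Spearman rho 0.8, 0.5 and 0.55), and Ddit3 to the ubiquitin-conjugating enzyme Ube2n at 0.945, Wdr61 at 0.887 and Tbc1d24 at 0.868. The Gadd45g values too have their lowest point on 60 min replicate b, at -0.52 from the 0 min mean on the log2 scale.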

How the data were processed

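The deposited table holds 1 linear intensity per probe set and array. Its values were used as deposited, and the software with which the authors summarised and scaled them is not given in the sources used here. Names came from the platform annotation (10833 probe sets with 1 symbol, 396 with several, 1193 with none). Members and lists were chosen with earlier results of these data known. After 66 control probe sets were removed, 7884 probe sets with at least 3 of 9 arrays above the 40th percentile (44.69) were fitted as log2(intensity + 11.8), the constant being the 20th percentile, using limma 3.58.1 (R 4.3.3, functions lmFit and eBayes, variance trend, 1 mean per time, 6 residual and 4.68 prior degrees of freedom). P-values were adjusted by Benjamini-Hochberg over all tested probe sets. An exact permutation test of 3 against 3 arrays cannot give a p under 0.1. Where a gene had more than 1 probe set, the brightest leads and the rest stand beside it. Every member is named, with the 3 genes of highest correlation to its brightest probe set. From each list up to 4 called genes with the largest change are named, or the 2 brightest where none was called. Psat1, Gars, Sesn1 and Plk2 were added outside this rule. On simulated arrays for 60 against 0 min (7884 probe sets, 10 draws) the fit found 17.5% of log2 changes of 0.5, 64.6% of those of 1 and 92.0% of those of 2, with 4.24% of calls false. The simulated noise was independent between probe sets and held no effect shared by a whole array, so these rates may not hold for the real arrays. Each draw also changed fewer probe sets than the 1031 called at 60 min on the real arrays. The share found depends on how many are changed. Precision is limited by the number of arrays. Alternatives changed the constant, filter, scaling, variance trend, arrays fitted and replicate block, or left out each array. Motifs were counted in Python 3.11.15 in RefSeq promoter windows, and figures drawn with matplotlib 3.10.9.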

Additional observations from a re-analysis of the deposited data

How the results depend on the processing

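Of 1263 values computed under alternatives, 1128 kept their direction and side of the threshold, 89 no longer passed, 22 newly passed and 24 turned sign. Member probe sets called at 30 min numbered 1, with 2 in a fit of the 2 times alone and 0 to 2 with 1 array left out. At 60 min they numbered 2, with 1 under no filter, 4 under quantile normalization, 4 under 75th percentile scaling, 1 with no variance trend and 1 to 4 with 1 array left out. Under cyclic loess Myc was called at 60 min in addition (limma adjusted p = 0.0472). Between 60 and 30 min the member probe sets called numbered 0 throughout. Over all probe sets the 30 min count was 74, with 117 for a constant of 50, 39 under no filter, 145 under quantile normalization, 40 with no variance trend, 389 for the 2 times alone and 16 to 557 with 1 array left out. The 60 min count was 1031, with 652 under no filter, 719 with no variance trend and 77 to 1584 with 1 array left out. The count between 60 and 30 min was 2, with 1 for the 2 times alone and 0 to 5 with 1 array left out. The share of calls that were higher at 30 min was 51.4%, against 35.043% for a constant of 50, 61.5% under no filter, 65.0% with no variance trend, 35.9% under quantile normalization, 39.6% under 75th percentile scaling, 34.8% under cyclic loess, 27.0% for the 2 times alone, 22.4% with the replicate block and 19.9% (without 30 min replicate a) to 93.75% (without 0 min replicate a) with 1 array left out. At 60 min it was 33.3%, against 43.8% under 75th percentile scaling and 40.4% with a stricter filter. It was 26.8% both under cyclic loess and with no variance trend, and 27.8% to 40.3% with 1 array left out. Arrays of the same letter did not deviate together throughout (correlations of -0.128 to 0.304), and not every array correlated best with its own letter. Between 30 and 60 min, however, the pairs of letters a and b stood at 0.304 and 0.251, and that of letter c at 0.0224. The crossed pairs of a and b stood at -0.266 and -0.264. With the replicate letter as a block, 1, 2 and 0 members and 259, 1446 and 1 probe sets were called at 30 min, at 60 min and between them. Of the values that turned sign, none passed the threshold in either direction. Between 60 and 30 min Myc stood at 0.0334 under quantile normalization, 0.0225 under cyclic loess and -0.19 to 0.0465 with 1 array left out. Atf3 (104155_f_at) stood at 0.0386 and 0.0127 under these scalings. Atf4 stood at -0.0585 and -0.0783 under them and at -0.13 to 0.21 with 1 array left out. The ranges with 1 array left out were -0.27 to 0.16 for Gadd45b (161666_f_at), -0.26 to 0.0027 for Gadd45g and -0.0855 to 0.11 for Cdkn1a (94881_at). At 30 against 0 min that of Gadd45g was -0.13 to 0.0682. At 60 against 0 min that of Atf3 (104156_r_at) was -0.12 to 0.23, and that of Pcna -0.11 to 0.24, with -0.0611 under quantile normalization and -0.13 under cyclic loess. The cause was not tested.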
